A study of Mus musculus with 12 samples.

Results

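The transcripts of 8 genes of the core pluripotency network and the Lin28 pathway were measured in mouse gastruloids. The genes are *Pou5f1*, *Utf1*, *Tdh*, *L1td1*, *Lin28a*, *Lin28b*, *Trim71* and *Sall4*. They were taken as a given list, matched by symbol, out of the 55141 genes with deposited read counts, and each symbol matched a single gene. The list was selected on results of these data, in which the levels at the embedding times had been compared. Those levels are therefore described here without a test, while the comparisons between gels were tested. The gel tests use the same libraries, and whether their values also entered the choice is not recorded. Their p-values may therefore not be free of the selection.

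Pluripotency, the capacity of a cell to give rise to every tissue of the embryo, rests in mouse on a group of transcription factors centred on Oct4, the product of *Pou5f1*, which binds enhancers together with Sox2. *Sall4* encodes a zinc finger factor that acts with Oct4 and recruits the NuRD chromatin remodelling complex. Lin28a and Lin28b are RNA-binding proteins that block the maturation of let-7 microRNAs, and let-7 in turn represses *Lin28a*, *Lin28b* and *Trim71*, so that the pathway forms a mutual repression loop between early embryonic and differentiated states. In the embryo *Pou5f1* is shut off by early somitogenesis, whereas *Lin28a* and *Sall4* stay on for longer in the elongating tail and other progenitors.

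Gastruloids are aggregates of mouse embryonic stem cells that form germ layers and elongate along an anterior-posterior axis. All groups shared the 129/SVEV background, a seeding of 300 cells per well, a pulse of the Wnt agonist CHIR99021 (3 µM for 24 h) given 48 h after seeding, and collection at 120 h. They differed only in when they were placed in a dextran hydrogel (72 h or 96 h after seeding) and in the concentration of that gel (1.0 mM, or the stiffer 1.5 mM), which gave 4 groups of 3 libraries. Gastruloids embedded at 72 h had therefore spent longer in the gel at collection, so that the age at embedding and the time spent in the gel cannot be told apart. Each library was a pool of about 30 gastruloids freed from the gel with dextranase, so a value is an average over gastruloids and over all their cell types. The authors call their replicates biological, the labels do not say how they were separated, and the p-values below measure the spread between these libraries.

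The 12 libraries held 23011800 to 27609400 counts (rounded), of which mitochondrial genes took 1.68 to 3.02%. Markers of several tissues were detected, among them *T* of the tail bud (group means of 75.6 to 251 CPM, the read count scaled to the library total), *Meox1* of somites (89.4 to 367 CPM), *Sox17* of endoderm (20.7 to 29.9 CPM) and *Kdr* of endothelium (142 to 214 CPM). Of the tail bud and presomitic markers, *Cdx4*, *Wnt3a* and *Msgn1* were near 0, with group means of at most 0.180 CPM.

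The Lin28 arm of the list is linked by sequence to let-7, and the sequences that make this link are shown here because they divide the list. Of 11 mature mouse let-7 and miR-98 sequences in RefSeq, 10 share the seed (bases 2 to 8, in capitals).
mmu-let-7a-5p: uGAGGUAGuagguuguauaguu
mmu-let-7g-5p: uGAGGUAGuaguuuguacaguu
mmu-miR-98-5p: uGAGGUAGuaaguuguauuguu
The reverse complement of this seed in a transcript, written as DNA, reads CTACCTC. In the 3' untranslated region of the GENCODE M21 transcript with the longest coding sequence, it occurred 4 times in *Trim71*, 4 times in *Lin28b*, 2 times in *Lin28a* and once in *Sall4*. It was not found in those of *Pou5f1*, *Utf1*, *Tdh* or *L1td1*.

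A window around a match is given below for each of the 4 genes that hold one, in the sense of the transcript with the match in capitals (GRCm38, minus strand for all). They lie in the 3' untranslated regions at chr9:114512470-114512499 (*Trim71*), chr10:45381020-45381049 (*Lin28b*), chr4:134005187-134005216 (*Lin28a*) and chr2:168748938-168748967 (*Sall4*).
Trim71: agtacaacattgcctaagtcCTACCTCagc
Lin28b: ccttcacccgggcgggaagtCTACCTCatg
Lin28a: ggagtgcacagcctgttgaaCTACCTCatt
Sall4: atgtgagggctttaatttatCTACCTCaat
The match was followed by an A, a feature of stronger let-7 sites, at all 4 positions of *Trim71*, at both of *Lin28a*, at that of *Sall4* and at 1 of the 4 of *Lin28b*. The untranslated regions of the 4 genes with matches are long (1697 to 5512 bases), and those of the 4 without are short (122 to 364 bases). Among all 21009 genes with such a region, 7.98% hold a match, as do 15.9% of the 6111 genes with a region of 1500 to 6000 bases and 1.67% of the 7794 genes with up to 500 bases. At least 2 matches were present in 2.14% of the longer group. A match is a description of the sequence only, and let-7 itself was not measured in these poly-A libraries.

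Promoter sequences in RefSeq matched 6 of the 8 genes, all but *Tdh* and *Sall4*. *Pou5f1* had a further promoter sequence inside the gene (chr17:35508557-35508856), which held no GC box as defined below and is not shown. The stretches that end just before the annotated genes of *Pou5f1* (236 bases, chr17:35505782-35506017, plus strand, GRCm38.p6) and *Utf1* (183 bases, chr7:139943606-139943788, plus strand) are shown, since both genes differed between embedding times as described below. GC boxes, the binding motif of Sp1-type factors (GGGCGG on either strand), are in capitals.
Pou5f1: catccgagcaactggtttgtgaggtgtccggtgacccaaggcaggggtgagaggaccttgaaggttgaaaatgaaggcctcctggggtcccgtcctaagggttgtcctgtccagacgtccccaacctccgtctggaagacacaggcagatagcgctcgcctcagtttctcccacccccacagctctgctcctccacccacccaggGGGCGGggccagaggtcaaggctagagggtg
Utf1: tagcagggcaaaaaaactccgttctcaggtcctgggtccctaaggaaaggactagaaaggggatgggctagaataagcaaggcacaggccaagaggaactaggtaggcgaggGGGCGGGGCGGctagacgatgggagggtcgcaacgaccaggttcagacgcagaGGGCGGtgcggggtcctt
*Utf1* held 3 GC boxes in this stretch, a pair of which adjoin with shared bases, and *Pou5f1* held 1. The promoters of *Lin28a* and *Trim71*, whose group means were not lower at 72 h in either gel, also held the motif, and those of *L1td1* and *Lin28b* did not. A GC box stands in 35.7% of 32851 mouse promoters of 300 bases (250 upstream and 50 downstream). The consensus octamer of POU factors (ATGCAAAT on either strand) was found in none of the members' windows of that length and in 1.74% of all promoters.

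Per length of transcript, the 8 genes spanned a wide range. In FPKM (fragments scaled to transcript length and library depth, as computed by the authors), the mean over the 12 libraries was 80.5 for *Lin28a*, 42.3 for *Sall4*, 24.2 for *Trim71*, 15.0 for *Pou5f1*, 12.4 for *Lin28b*, 6.34 for *Utf1*, 1.81 for *L1td1* and 1.18 for *Tdh*. The order was the same when counts were divided by exon length. *Lin28a* thus stood at the 97.6th percentile of genes with any FPKM and *Tdh* at the 58.6th. *Lin28a* exceeded *Sall4*, and *Sall4* exceeded *Trim71*, in all 12 libraries. The neighbours *Pou5f1* and *Lin28b* did not hold their order, as *Pou5f1* was above *Lin28b* in 6 of 6 libraries embedded at 96 h and in 0 of 6 embedded at 72 h. *Lin28b* was above *Utf1* in all 6 libraries at 72 h but in 4 of 6 at 96 h.

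**Figure D1:**
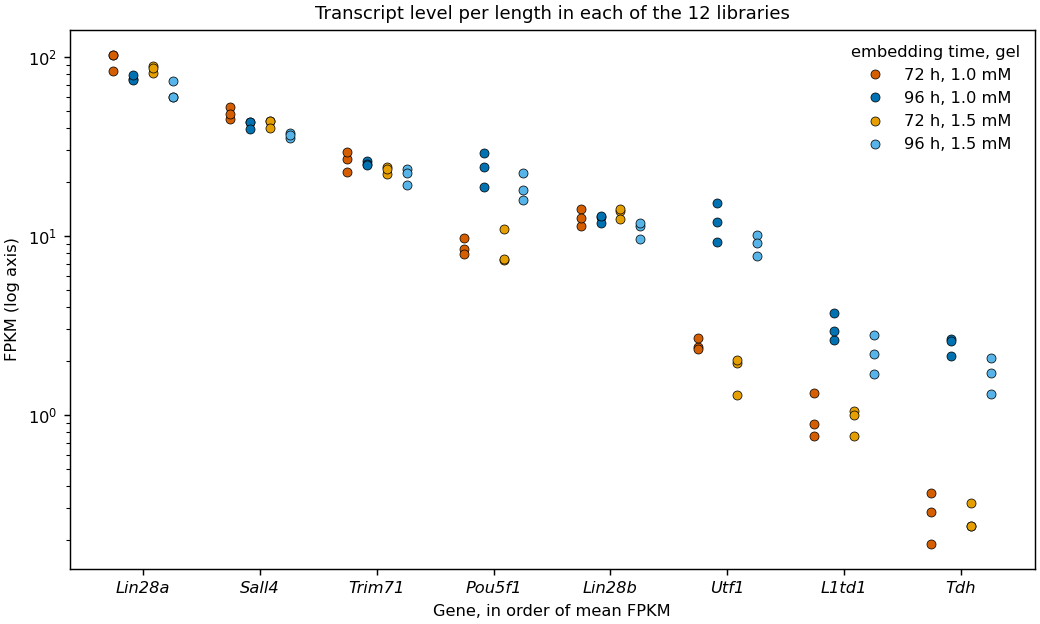
FPKM of the 8 genes (log axis) in the 12 libraries, with each point a library and each color a group of 3. *Lin28a* lay between 59.5 and 103 FPKM in every library, and *Tdh* lay between 0.189 and 2.67 FPKM and separated by embedding time.

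*Pou5f1* (ENSMUSG00000024406, 5 exons, chr17:35506018-35510772 on the plus strand of GRCm38) was lower after embedding at 72 h in both gels. For embedding at 72 h and a 1.0 mM gel, it was measured at 14.5, 17.3 and 14.0 CPM (replicates 1 to 3, on totals scaled with TMM), and for embedding at 96 h at 50.0, 42.2 and 32.9 CPM. The 1.5 mM libraries held 13.9, 19.2 and 12.7 CPM at 72 h and 39.7, 29.9 and 31.0 CPM at 96 h. Within each gel, the highest library at 72 h stood well below the lowest at 96 h. The difference, 72 h over 96 h, was -1.45 ± 0.15 on the log2 scale (fitted value ± SE) in 1.0 mM gels and -1.14 ± 0.16 in 1.5 mM gels, or 2.72-fold and 2.21-fold lower. In such bulk libraries, fewer cells of a type and less RNA per cell cannot be told apart.

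*Utf1*, a chromatin-associated protein of undifferentiated stem cells and a known target of Oct4 and Sox2 (ENSMUSG00000047751, 2 exons, chr7:139943789-139945112, plus strand), differed more. Its levels at 72 h were 3.77, 4.45 and 3.66 CPM in 1.0 mM gels and 3.38, 3.21 and 2.15 CPM in 1.5 mM gels. At 96 h they were 24.1, 18.9 and 14.7 CPM in 1.0 mM gels and 16.4, 13.4 and 14.4 CPM in 1.5 mM gels. No library at 72 h came near those at 96 h, and the log2 difference was -2.27 ± 0.19 in 1.0 mM and -2.35 ± 0.18 in 1.5 mM gels (4.83-fold and 5.09-fold lower). Relative to *Pou5f1*, its FPKM was 0.286 ± 0.00650 (SD, n = 3) at 72 h and 0.505 ± 0.0206 (SD, n = 3) at 96 h in 1.0 mM gels. The same ratio was 0.208 ± 0.0497 (SD, n = 3) and 0.482 ± 0.0276 (SD, n = 3) in 1.5 mM gels. *Utf1* was thus lower at 72 h also in proportion to *Pou5f1*, with no overlap in either gel.

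*Tdh* encodes threonine dehydrogenase, a mitochondrial enzyme on which mouse embryonic stem cells depend for glycine and acetyl-CoA (ENSMUSG00000021953, 9 exons, chr14:63492347-63509092, minus strand). It was the lowest of the 8 genes, with 11 to 22 reads per library at 72 h against 93 to 182 reads at 96 h. These reads amounted to 0.720, 0.899 and 0.458 CPM at 72 h and 6.98, 6.50 and 5.44 CPM at 96 h in 1.0 mM gels. For 1.5 mM gels they were 0.888, 0.623 and 0.568 CPM at 72 h and 5.40, 3.73 and 4.32 CPM at 96 h. The reads of the embedding times were far apart, and the log2 difference (-3.17 ± 0.26 in 1.0 mM and -2.70 ± 0.26 in 1.5 mM gels) was the largest among the members on the scale of counts. On log2(FPKM + 1), where low levels are shrunk, *Tdh* differed by -1.43 and -1.08 and *Utf1* by more (-1.89 and -1.86).

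*L1td1* encodes an RNA-binding protein derived from a LINE-1 open reading frame, which associates with Lin28 in stem cells (ENSMUSG00000087166, 5 exons, chr4:98726734-98738480, plus strand). It was at 4.79, 3.47 and 2.79 CPM (72 h) and 13.4, 9.71 and 10.96 CPM (96 h) in 1.0 mM gels, and at 3.07, 3.74 and 3.41 CPM (72 h) and 10.3, 6.82 and 7.98 CPM (96 h) in 1.5 mM gels. Again all libraries at 72 h were below all at 96 h of the same gel, by -1.62 ± 0.21 and -1.31 ± 0.19 on the log2 scale. In the direction of the difference, *L1td1* was thus with *Pou5f1* and not with *Lin28a*. The root mean square difference between the centred log2 CPM profiles over the 12 libraries was 0.245 for *L1td1* and *Pou5f1* but 0.949 for *L1td1* and *Lin28a*. This distance includes the embedding-time difference known when the list was chosen, so it restates that difference and is no separate support.

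Among the libraries embedded at 96 h, replicate 1 was the highest of its group for *Pou5f1*, *Utf1*, *Tdh* and *L1td1*, in both gels. At 72 h the highest replicate varied between these genes. The highest library of a 96 h group exceeded the lowest by 1.23 to 1.64 times for these 4 genes, less than the distance between the embedding times.

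**Figure D2:**
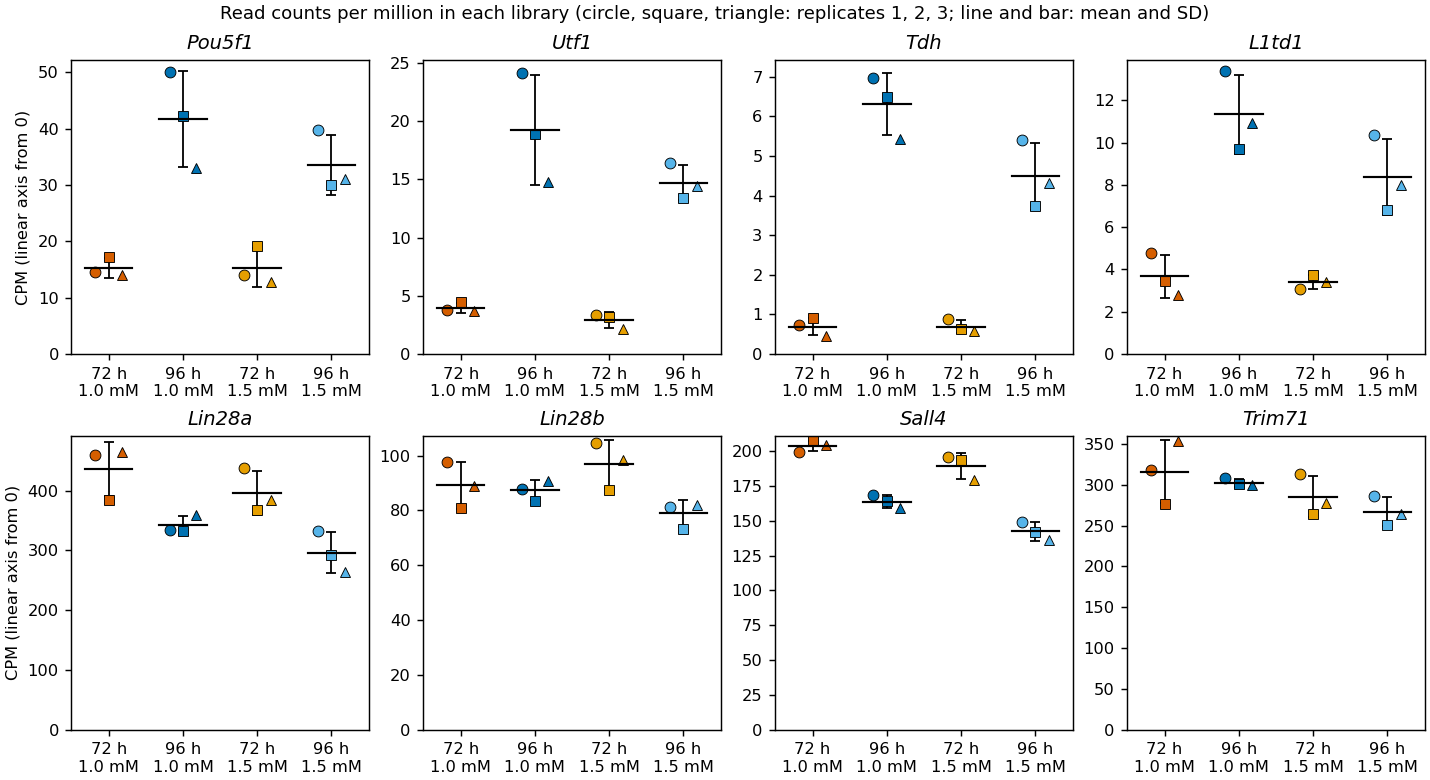
CPM of each gene in the 12 libraries on linear axes that start at 0, with replicates as circles, squares and triangles, and the mean and SD of each group (n = 3) as a line and bars. The upper 4 genes separate by embedding time (*Pou5f1* means of 15.3 and 41.7 CPM in 1.0 mM gels), whereas the lower 4 stay within a narrow range.

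*Lin28a* (ENSMUSG00000050966, 4 exons, chr4:134003330-134018841, minus strand) differed in the opposite sense. It was at 459, 384 and 465 CPM at 72 h and 334, 333 and 359.9 CPM at 96 h in 1.0 mM gels, and at 438, 368 and 384 CPM at 72 h and 332, 293 and 264 CPM at 96 h in 1.5 mM gels. The lowest library at 72 h was above the highest at 96 h within each gel. The log2 difference was 0.36 ± 0.09 in 1.0 mM and 0.42 ± 0.09 in 1.5 mM gels, well below a doubling.

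*Lin28b*, its paralogue, which is known to act on primary let-7 transcripts in the nucleus (ENSMUSG00000063804, 5 exons, chr10:45376620-45470201, minus strand), differed less clearly. In 1.0 mM gels the embedding times overlapped, with 97.9, 80.8 and 88.8 CPM at 72 h and 87.8, 83.4 and 90.7 CPM at 96 h, and the log2 difference was 0.04 ± 0.09. The 1.5 mM libraries held 105, 87.4 and 98.5 CPM at 72 h and 81.2, 73.4 and 82.2 CPM at 96 h, without overlap, and the difference was 0.29 ± 0.08. The FPKM of *Lin28a* was 7.62 ± 0.468 (SD, n = 3) times that of *Lin28b* at 72 h and 6.11 ± 0.186 (SD, n = 3) times at 96 h in 1.0 mM gels, without overlap. For 1.5 mM gels the ratio was 6.39 ± 0.262 (SD, n = 3) at 72 h and 5.90 ± 0.748 (SD, n = 3) at 96 h, where the libraries overlapped.

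*Trim71*, an RNA-binding ubiquitin ligase with NHL repeats and a classical let-7 target (ENSMUSG00000079259, 4 exons, chr9:114507133-114564369, minus strand), overlapped between the embedding times. Its libraries held 318, 276 and 354 CPM at 72 h and 308, 301 and 299 CPM at 96 h in 1.0 mM gels, and 314, 265 and 278 CPM at 72 h and 287, 251 and 264 CPM at 96 h in 1.5 mM gels. This held for both gels, with log2 differences of 0.07 ± 0.09 (95% interval -0.14 to 0.27) and 0.09 ± 0.08 (-0.09 to 0.27).

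*Sall4* (ENSMUSG00000027547, 4 exons, chr2:168748332-168767201, minus strand) was higher after embedding at 72 h. The values were 199.7, 207 and 204 CPM at 72 h and 168, 164 and 159 CPM at 96 h in 1.0 mM gels, and 196, 194 and 179 CPM at 72 h and 149, 142 and 136 CPM at 96 h in 1.5 mM gels. Neither gel showed an overlap, and the log2 differences were 0.32 ± 0.07 and 0.41 ± 0.06. On the authors' FPKM the differences of *Sall4* were smaller, at 0.20 and 0.21 (pseudocount of 1), while those of *Lin28a* were 0.32 and 0.42 on the same scale. The cause was not tested. *Sall4* stood at 5.60 ± 0.357 (SD, n = 3) times the FPKM of *Pou5f1* at 72 h and at 1.80 ± 0.312 (SD, n = 3) times at 96 h in 1.0 mM gels, and at 5.10 ± 1.01 and 1.99 ± 0.289 (SD, n = 3) times in 1.5 mM gels. An antisense gene, Gm14261, overlaps *Sall4* and held 14 to 44 counts per library, at most 0.896% of the *Sall4* counts. The antisense genes that overlap *Lin28a*, *Pou5f1*, *Trim71* and *Tdh* held at most 8 counts.

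The list thus held 4 genes that were lower at 72 h in both gels (*Pou5f1*, *Utf1*, *Tdh* and *L1td1*), 2 that were higher in both (*Lin28a* and *Sall4*), *Lin28b*, which was higher without overlap in 1.5 mM gels alone, and *Trim71*, which overlapped in both. In the fit over all genes, 1.69% of genes were lower and differentially expressed in 1.0 mM gels and 1.57% in 1.5 mM gels (DE: a change of more than 1 on the log2 scale at an adjusted p under 0.05 with edgeR), and the 4 lower members were among them, which is a count and no test of the members. Non-overlapping libraries in the lower direction occurred in 13.8% and 20% of all genes, and in the higher direction in 14.6% and 20%. Since the list was chosen with these differences known, nothing is read from these shares. The 4 genes that were lower at 72 h are also the 4 without a let-7 match in the untranslated regions described above, and those whose FPKM was lowest at 72 h. Their untranslated regions are short (122 to 364 bases), and only 1.67% of genes with up to 500 bases hold a match. The split and the FPKM order both use the embedding-time values known at the choice, so no link to let-7 is read from this.

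**Figure D3:**
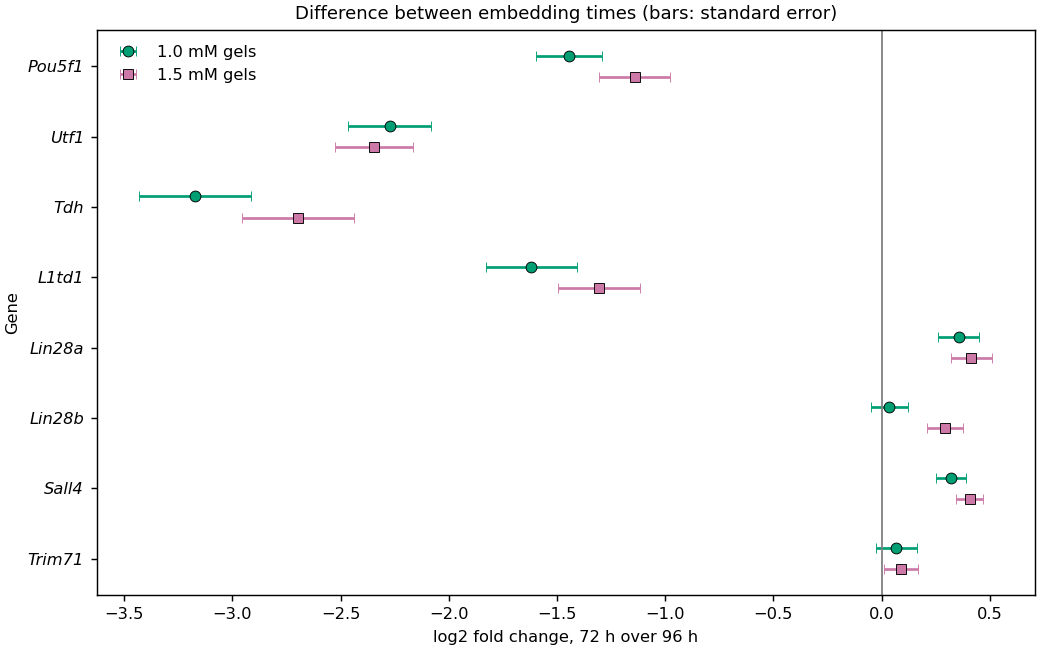
Log2 fold change of each gene between embedding times (72 h over 96 h), in 1.0 mM (circles) and 1.5 mM gels (squares), with bars for the standard error. *Tdh* lies farthest to the left (-3.17 and -2.70) and *Lin28a* and *Sall4* lie right of 0 in both gels.

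The gel comparisons addressed whether these genes differed with the concentration of the gel at a given embedding time. The authors estimate a smaller mesh in stiffer gels and expect slower transport of factors there. Stiffness and transport can therefore not be told apart here. At 72 h, none of the 8 genes passed the threshold between 1.5 mM and 1.0 mM gels in edgeR's quasi-likelihood test with Benjamini-Hochberg adjustment over 15563 genes (adjusted p of 0.704 to 0.999), nor with DESeq2 or limma-voom. None had an unadjusted p below 0.05 either, against 6.9% of all genes tested, and edgeR called 0% of all genes (DE genes were 2 with DESeq2 and 0 with limma-voom). The log2 difference of *Pou5f1* was 0.0016, with a 95% interval of -0.38 to 0.38. That of *Tdh* was -0.0042, with an interval of -0.82 to 0.81, wide enough to hold differences of the size of *Lin28a* and *Sall4* between embedding times. *Utf1* had the largest estimate (-0.45, interval -0.95 to 0.05, adjusted p = 0.704 by edgeR), and *Utf1* and *Sall4* (-0.11) were the members whose libraries did not overlap, being lower in 1.5 mM gels. Such separation in the lower direction was seen in 5.11% of all genes.

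At 96 h, all 8 genes were lower in 1.5 mM than in 1.0 mM gels, by log2 differences of -0.49 to -0.15, but none passed the adjusted threshold of edgeR, DESeq2 or limma-voom. The values were -0.49 ± 0.18 for *Tdh*, -0.44 ± 0.17 for *L1td1*, -0.39 ± 0.16 for *Utf1* and -0.31 ± 0.14 for *Pou5f1* (± SE). They were -0.21 ± 0.08 for *Lin28a*, -0.20 ± 0.06 for *Sall4*, -0.18 ± 0.06 for *Trim71* and -0.15 ± 0.07 for *Lin28b*. The groups did not overlap for *Tdh*, *Sall4*, *Lin28a*, *Lin28b* and *Trim71*, whereas for *Pou5f1*, *Utf1* and *L1td1* the highest 1.5 mM library (replicate 1) reached into the 1.0 mM range. Replicate 1 was also the highest 1.0 mM library for these 3 genes. Each of their 1.5 mM libraries was below the 1.0 mM library of the same number. Lower values without overlap were found in 8.08% of all genes tested. With edgeR, the adjusted p ranged from 0.303 (*Sall4*) to 0.499 (*Pou5f1*), while all 8 genes had an unadjusted p below 0.05, as did 9.95% of all genes. Not 1 of the 15861 genes tested was called by edgeR at an adjusted p below 0.05 in this comparison (DE genes were 9 with DESeq2 and 0 with limma-voom). With the replicate number as a block, which the labels do not give as a pairing, edgeR called 51 DE genes. The adjusted p of the members was then 0.0669 to 0.251 by edgeR, and none passed. Without replicate 1 of the 1.0 mM group, the difference of *Pou5f1* was -0.16 and that of *Utf1* -0.19.

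Over both embedding times together, with 6 libraries for each gel, the 8 estimates were all negative, from -0.41 ± 0.13 for *Utf1* (edgeR adjusted p = 0.224) to -0.01 ± 0.07 for *Lin28b* (adjusted p = 0.954). *Sall4* had the lowest adjusted p (-0.15 ± 0.04, adjusted p = 0.169 by edgeR). None of the 8 passed, and 5 of 16388 genes (0.0305%) did, whereas 4 members and 12.7% of all genes had an unadjusted p below 0.05. DESeq2 gave *Sall4* an adjusted p of 0.0427, and edgeR without a filter on low counts gave *Utf1* one of 0.0325.

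**Figure D4:**
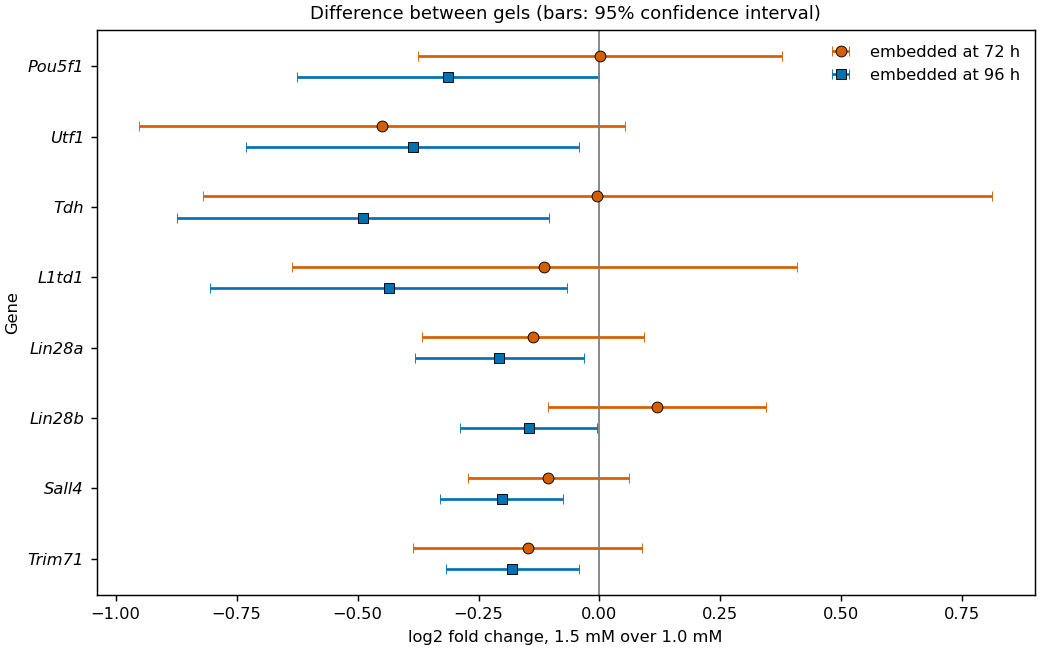
Log2 fold change of each gene between gels (1.5 mM over 1.0 mM) for gastruloids embedded at 72 h (circles) and 96 h (squares), with 95% confidence intervals that are not adjusted for the number of genes. All 8 squares lie left of 0, between -0.49 and -0.15, and the interval of *Tdh* at 72 h is the widest (-0.82 to 0.81).

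Whether the effect of embedding time depended on the gel was tested with an interaction term. This term contrasts the embedding-time differences known when the list was chosen, so its p-values for the members are not free of that choice. No member passed (edgeR adjusted p of 0.953 to 0.986), and 0 of 16388 genes did with edgeR (0 DE genes also with DESeq2 and limma-voom). The largest estimate was that of *Tdh* (0.49 ± 0.38), and *Lin28b* was the only member with an unadjusted p below 0.05 by edgeR (0.27 ± 0.12), where 4.32% of all genes had one. The overlap of *Lin28b* in 1.0 mM gels and its absence in 1.5 mM gels are thus not shown to differ. The ratios of *Lin28a* to *Lin28b* and of *Utf1* to *Pou5f1* at 72 h did not overlap between gels, being lower in 1.5 mM gels. A two-sided exact permutation test gave p = 0.1 for each, the smallest value that 3 against 3 libraries allow, and 0.3 after adjustment over the 6 ratio tests made.

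The known partners and targets of Oct4 were then followed as a group between embedding times. Here and below, fell and rose mean lower and higher after embedding at 72 h than at 96 h, with all gastruloids collected at 120 h. Of 28 such genes tested in 1.0 mM gels, 13 fell at 72 h and 1 rose (edgeR adjusted p below 0.05), where 3.27% of all genes fell and 5.97% rose. With 1.5 mM gels, 11 of 27 fell and 2 rose, against 8.98% and 10.4% of all genes. The median log2 difference of the list was -0.36 and -0.42 in the respective gels, and that of all genes -0.01 in each. This list, like those that follow, was drawn up with results of these data known. Differences of single genes are given below on the log2 scale, first for 1.0 mM and then for 1.5 mM gels, with the adjusted p in parentheses. *Nr0b1*, an orphan nuclear receptor that binds Oct4, fell (-3.97, edgeR adjusted p = 0.00226, and -3.67, 0.00422), although from few reads. It had 4 reads over the 3 libraries at 72 h and 74 at 96 h in 1.0 mM gels, a ratio of 0.0586 (exact 95% interval 0.0156 to 0.157, counting error only), and 3 against 47 reads in 1.5 mM gels (0.0708, 0.0141 to 0.220). *Dppa2*, a chromatin factor of early development, also fell (-3.31, 0.000161, and -2.66, 0.00384), and *Dppa5a*, an RNA-binding protein of stem cells, did so too (-2.71, 2e-05, and -2.48, 0.000103). The reads of *Dppa2* were also few, with 5 to 6 per library at 72 h in 1.0 mM gels and 4 to 9 in 1.5 mM gels. *Fgf4*, whose enhancer is a textbook target of Oct4 and Sox2, fell (-2.42, 0.00129, and -2.53, 0.00145). *Sox2*, the partner itself and also a gene of neural and tail bud progenitors, fell less (-0.58, 0.0280, and -0.42, 0.0178). Genes that rose included *Tbx3* in 1.0 mM gels (1.49, edgeR adjusted p = 0.0187) and *Jarid2* in 1.5 mM gels (0.40, 0.0182). Of the POU family paralogues of *Pou5f1*, 0 of 8 tested in 1.0 mM gels passed, and in 1.5 mM gels 1 of 7 rose, the widely expressed *Pou2f1* (0.40, edgeR adjusted p = 0.00435), with medians of -0.16 and -0.03.

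The genes that process let-7 or work with Lin28 were then followed. In 1.0 mM gels 2 of 13 rose and 0 fell (median -0.01), and in 1.5 mM gels 5 rose and 1 fell (median 0.18). Of all genes, 5.97% rose and 3.27% fell in 1.0 mM gels, and 10.4% rose and 8.98% fell in 1.5 mM gels. The same shares stand beside the counts of every list and marker set below, and several of those counts are near them. *Trim25*, a ubiquitin ligase that assists Lin28a in the uridylation of let-7 precursors, rose by 0.80 (edgeR adjusted p = 0.0130) and 1.22 (0.00174). *Ago2*, the core protein of the silencing complex, rose by 0.43 (0.0371) and 0.49 (0.0124). With 1.5 mM gels *Dhx9*, *Tut4* and *Ddx17* also rose (0.41, 0.30 and 0.22) and *Dgcr8*, the partner of Drosha, fell by 0.23.

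Among 28 genes known as let-7 targets, 3 rose and 1 fell in 1.0 mM gels (median 0.03), and 7 rose and 1 fell in 1.5 mM gels (median 0.12). *Myc* was the gene that fell (-1.31, edgeR adjusted p = 9.39e-05, and -1.18, 0.00235). *Cdk6*, a kinase of the G1 phase, rose by 0.57 (0.0301) and 0.59 (0.0215), and *Arid3b*, a DNA-binding protein, by 0.43 (0.0229) and 0.38 (0.0234). Of the mRNA targets of Trim71 and its NHL paralogues, 1 of 10 fell in each gel and 0 rose (medians -0.05 and -0.11). That gene was *Hoxa5*, a homeobox gene of the trunk (-3.21, edgeR adjusted p = 0.00121, and -2.68, 0.00232), with 1 to 10 reads per library at 72 h. *Egr1*, in the same list, was the only listed gene that differed between gels over both embedding times (-2.17 in 1.5 mM gels, edgeR adjusted p = 0.0257).

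The NuRD subunits and Sall paralogues, which act with Sall4, included 2 of 17 genes that rose in 1.0 mM gels and 3 that rose and 1 that fell in 1.5 mM gels (medians 0.0042 and 0.07). *Chd3*, a remodelling ATPase of NuRD, rose by 0.46 (edgeR adjusted p = 0.0273) and 0.53 (0.00776), and *Rbbp7*, a histone-binding subunit, by 0.46 (0.00717) and 0.44 (0.00754). With 1.5 mM gels *Gatad2b* also rose (0.27) and *Cdk2ap1* fell by 0.28. In threonine, glycine and one-carbon metabolism, the setting of Tdh, 3 of 18 genes rose and 1 fell in 1.0 mM gels, and 1 rose and 2 fell in 1.5 mM gels (medians -0.03 and 0.0027). *Shmt1*, the cytosolic enzyme that interconverts serine and glycine, fell (-0.40, 0.0137, and -0.42, 0.00455). Besides, *Mthfd2* (0.60), *Psat1* (0.38) and *Gldc* (0.33) rose in 1.0 mM gels, and in 1.5 mM gels *Mthfd1l* rose (0.29) and *Gcsh* fell by 0.26. No gene of the threonine list differed as much as *Tdh*. As *Tdh* had the largest difference on counts in a list chosen with these values known, nothing is read from this.

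**Figure D5:**
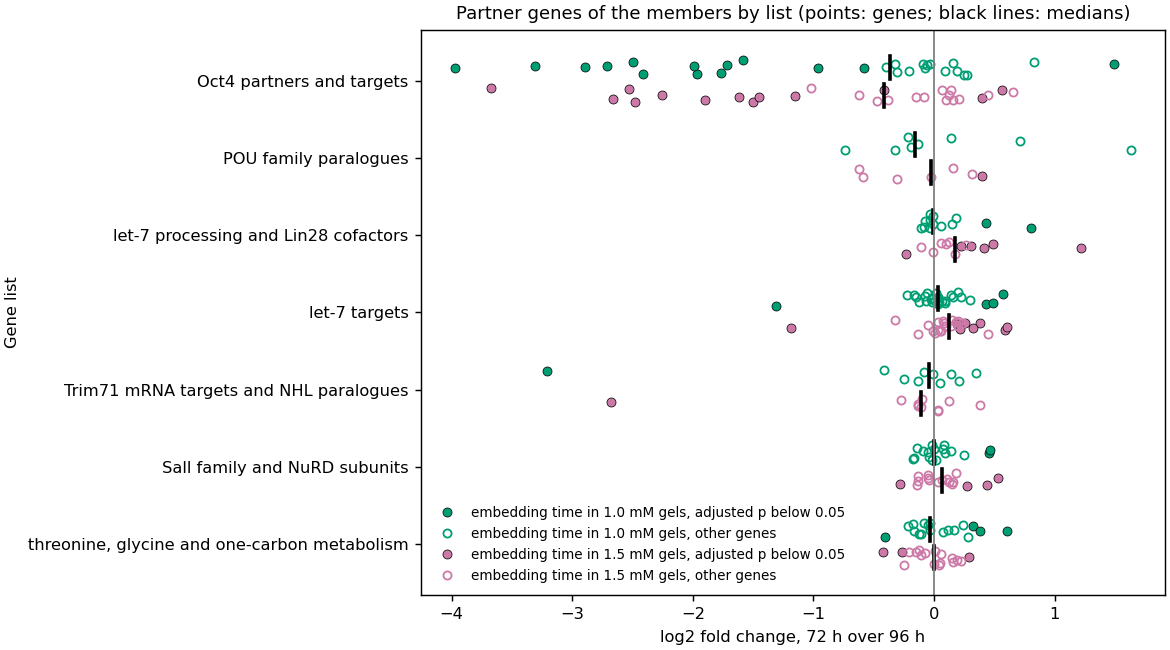
Log2 fold change between embedding times (72 h over 96 h) of the genes in 7 partner lists, with a point per gene, filled where the edgeR adjusted p was below 0.05, green for 1.0 mM and pink for 1.5 mM gels, and a black line at each median. The Oct4 list reaches to -3.97 (*Nr0b1*, a gene of few reads) with medians of -0.36 and -0.42, whereas the medians of the other lists lie between -0.16 and 0.18.

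Markers of cell types moved along with the members, and their part in the differences above was not tested. Of 8 markers of naive stem cells, all of which are also in the Oct4 list, 5 fell and 1 rose in 1.0 mM gels and 4 fell in 1.5 mM gels. *Nanog* fell (-1.96, edgeR adjusted p = 0.000134, and -1.504, 0.00525), as did *Zfp42* (-2.50, 0.00027, and -2.26, 0.000546) and *Esrrb* (-1.58, 0.00113, and -1.15, 0.00549). The summed level of this list, which includes *Tbx3* at group means of 10.8 to 38.6 CPM, overlapped between embedding times in 1.0 mM gels (43.1 to 77.5 CPM at 72 h and 57.6 to 80.4 CPM at 96 h). The sums of the 1.5 mM libraries did not overlap, being lower at 72 h (54.5 to 57.0 CPM) than at 96 h (61.5 to 96.2 CPM). Of 9 germ-cell-like markers, *Dppa3*, *Prdm14*, *Nanos3*, *Dazl* and *Ddx4* were below 1 CPM on average in every group. *Tfap2c* fell (-1.75, 0.00191, and -1.496, 0.00279), *Prdm1* rose by 1.01 (0.00104) and 0.52 (0.0138), and *Prdm14* fell (-2.89, 0.00603) in 1.0 mM gels. The 9 germ-cell-like markers summed to 135 to 157 CPM at 72 h and 102.3 to 119 CPM at 96 h in 1.0 mM gels, and to 109.9 to 141 and 102.1 to 122 CPM in 1.5 mM gels. This sum was mostly *Prdm1* (group means of 81.4 and 67.1 CPM at 72 h against 40.7 and 46.8 CPM at 96 h) and *Kit* (52.7 to 57.2 CPM). The group means of *Tfap2c*, *Dppa3* and *Prdm14* were lower at 72 h in both gels. Of 6 formative or primed markers, *Utf1* aside, *Nodal* fell (-1.99, 0.00388, and -1.90, 0.00805), and the sum (249.6 to 295 CPM at 96 h and 259.8 to 293 CPM at 72 h in 1.0 mM gels, 234 to 283 and 268 to 301 CPM in 1.5 mM gels) overlapped. The formative sum was mostly *Dnmt3b* (group means of 203 to 241 CPM).

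Tissue markers also separated the embedding times. Cardiac mesoderm markers rose at 72 h, 8 of 8 in 1.0 mM and 5 of 8 in 1.5 mM gels (edgeR adjusted p below 0.05), and summed to 480.3 to 907 CPM at 72 h and 63.7 to 188 CPM at 96 h in 1.0 mM gels, and to 373 to 721 and 182 to 316 CPM in 1.5 mM gels. Presomitic and somitic markers fell in 4 of 7 and 3 of 7 cases, with sums of 119 to 220.1 CPM at 72 h against 528 to 618 CPM at 96 h in 1.0 mM gels, and of 138 to 268 against 388 to 538 CPM in 1.5 mM gels. Tail bud markers summed to 309 to 380.2 CPM at 72 h and 160.2 to 227 CPM at 96 h in 1.0 mM gels, and to 269 to 308 and 145 to 162 CPM in 1.5 mM gels. Of these, *T* rose by 1.17 (0.000604) and 1.42 (0.00026) and *Cyp26a1* by 0.85 (0.00206) and 0.60 (0.01), while *Sox2* fell as given above and *Nkx1-2* fell in 1.0 mM gels (-2.29, 0.00195). These sums were mostly *T* (251 and 203 CPM at 72 h against 112 and 75.6 CPM at 96 h), and the medians over the tail bud list were -0.08 and 0.06. At 96 h, where the 8 members were lower in 1.5 mM gels, the medians of the naive (-0.44), tail bud (-0.34), somitic (-0.27), formative (-0.20) and gut endoderm markers (-0.18) and of the Oct4 list (-0.28) were also below 0. Those of the cardiac (0.93) and endothelium markers (0.21) were above it, with no gene of these lists past the adjusted threshold. Neural tube, gut endoderm and endothelium markers had at most 2 genes in either direction in a gel. Of these, the neural tube sums were higher at 72 h without overlap (99.2 to 114 against 66.1 to 76.8 CPM in 1.0 mM gels, and 109 to 130.2 against 74.8 to 93.7 CPM in 1.5 mM gels). This sum was mostly *Irx3* (83.1 and 99.3 CPM at 72 h against 52.2 and 66.5 CPM at 96 h), and the group means of *Sox1*, *Nkx6-1* and *Olig2* were lower at 72 h in both gels, with list medians of -0.28 and 0.20.

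Genes with profiles most like those of the members were sought among 10988 genes with a mean of at least 5 CPM. Likeness was the root mean square difference of log2 CPM, centred on each gene's mean, over the 12 libraries. The average profile of the 8 members was closest to *Zfp985* (0.170), *Chchd10* (0.190), *Nsg2* (0.193), *Gpx3* (0.197) and *Plcd1* (0.198). This average mixes members that were lower after embedding at 72 h with members that were not, so it is the profile of no single member. The nearest gene was *Dppa5a* for both *Utf1* (0.235) and *Tdh* (0.258), *Chchd10* for *Pou5f1* (0.271) and *Hoxb4* for *L1td1* (0.273). The others were nearest to *Snap23* (*Sall4*, 0.0602), *B4galt1* (*Lin28a*, 0.0630), *Zbtb10* (*Lin28b*, 0.0443) and *Prune1* (*Trim71*, 0.0535), and as these 4 members varied little, small values come easily. Within the list, *Sall4* and *Lin28a* were the closest pair (0.105), followed by *Lin28b* and *Trim71* (0.129), and *Tdh* and *Lin28a* the farthest apart (1.63). These distances too include the embedding-time differences known when the list was chosen.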

How the data were processed

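The authors deposited raw read counts per Ensembl gene, which are not normalized, and FPKM values computed with Cufflinks 2.2.1.3. Per their methods and the labels, reads were trimmed with cutadapt 4.4 and aligned to mm10 (GRCm38) with STAR 2.7.10b; the strand setting of the counts is not given in the sources used here. A deposited table of the authors' own DESeq2 comparisons (fold changes and p-values) was not used.

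Counts were analysed with edgeR 4.0.16 in R 4.3.3 (TMM, glmQLFit, glmQLFTest, and filterByExpr at 10 counts and a total of 15), without 36 mitochondrial genes, on the 2 groups compared, with all 12 libraries for gel concentration across both embedding times and the interaction. P-values were adjusted over all genes tested. DE is defined in the results. CPM used TMM-scaled totals, and profiles a prior count of 2. All 8 members passed the filter in every comparison. At 23011800 to 27609400 counts per library, counting error was 0.977 to 5.32% of the level of *Lin28a*, *Lin28b*, *Sall4*, *Trim71* and *Pou5f1*. It reached 12.2% for *Utf1*, 11.3% for *L1td1* and 25.0% for *Tdh* at 72 h, close to the spread between the 3 replicates in some groups. No 2 replicates agreed within sampling noise. Test scripts were tested on simulated data.

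The members and gene lists were chosen with earlier results of these data known. Genes named are the 8 members, up to 4 genes per list with an adjusted p below 0.05 in both gels and the largest mean change, the nearest genes by profile, and, chosen after their values were seen, other genes of small counts. The lists were Oct4 partners and targets, POU paralogues, let-7 processing, let-7 targets, Trim71 targets, NuRD and Sall, threonine and one-carbon metabolism, and 9 sets of cell type markers. A single gene of the Oct4 list is not reported here. Promoters and miRNAs are from RefSeq, untranslated regions from GENCODE M21. Alternatives were DESeq2 1.42.0, limma-voom (limma 3.58.1), other normalizations and filters, FPKM with limma, a single fit, a replicate block, mitochondrial genes kept and each library left out.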

Additional observations from a re-analysis of the deposited data

How the results depend on the processing

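The number of DE members, a description where the embedding times are compared, was 4 in each gel between embedding times and 0 in the gel comparisons and the interaction under every alternative with edgeR, DESeq2 or limma-voom, including each library left out. With limma on log2(FPKM + 1), it was 2 in 1.5 mM gels, *Utf1* and *Tdh* (with a pseudocount of 0.1 it was 3). Among genes with a mean FPKM of at least 1 it was also 2, then *Pou5f1* and *Utf1*, as *Tdh* was filtered out. With a pseudocount of 1, *Tdh* was -1.43 and -1.08 in 1.0 and 1.5 mM gels and *L1td1* -0.72 in 1.5 mM gels, and *Tdh* no longer differed more than *Utf1*. *Sall4* was 0.20 and 0.21. *Tdh* has no value between gels at 72 h under the filters of 1 CPM and of mean FPKM. Below the fold threshold, *Sall4* and *Lin28a* were higher at 72 h under all alternatives. All 8 members were lower in 1.5 mM gels at 96 h under all alternatives, with *Pou5f1* at -0.46 to -0.16 when a library was left out.

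Values near 0 changed sign. For *Pou5f1* between gels at 72 h (main value 0.0016) it was -0.000122 with DESeq2, -0.0207 with limma-voom, -0.000137 with RLE, -0.0252 with upper quartile, -0.00151 with a filter of 1 CPM, -0.0288 with FPKM and a pseudocount of 1 (-0.0288 also with the filter on mean FPKM) and -0.0337 with 0.1. For *Tdh* (main value -0.0042) it was 0.0209 with limma-voom and 0.000932 without a filter, and for *Utf1* in the interaction (-0.06) 0.0368 with FPKM and a pseudocount of 1, with and without the filter. With a library left out, these ran from -0.20 to 0.12 (*Pou5f1*), -0.23 to 0.23 (*Tdh*) and -0.26 to 0.12 (*Utf1*). The ranges of the others were -0.28 to 0.12 for *L1td1* between gels at 72 h, -0.0610 to 0.0235 for *Lin28b* between gels across both embedding times, and, for the interaction, -0.03 to 0.16 for *Lin28a* and -0.0620 to 0.111 for *Trim71*. The cause was not tested.

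Replicate numbers are shared between groups in the labels, which do not say that libraries of a number were made together. The main fits therefore did not take the numbers as a pairing. Deviations from the group mean correlated at 0.0365 to 0.313 for same-numbered libraries (mean 0.160, 13 of 18 pairs above 0.1). For pairs of other numbers the range was -0.262 to 0.111 (mean -0.0798, 1 of 36 above 0.1). All 12 libraries correlated best with a library of their own number, a hint from the data and not from the design. The fits without a block leave this shared variation in the spread. With the replicate block, DE genes were 757 against 678 (1.0 mM) and 543 against 498 (1.5 mM) between embedding times, and 16, 51, 7 and 4 against 0, 0, 1 and 0 between gels at 72 h, at 96 h, across both and in the interaction. The number of members called did not change (adjusted p of 0.0669 to 0.251 between gels at 96 h, by edgeR), and *Pou5f1* and *Tdh* between gels at 72 h were -0.0120 and 0.0126.

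Over all alternatives, DE genes ranged from 90 (FPKM) to 916 (no filter) in 1.0 mM gels, from 57 to 663 in 1.5 mM gels, and from 0 to 56, 65, 40 and 112 in the 4 other comparisons, where the highest counts came without a filter.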
